A study of Rattus norvegicus with 9 samples.

Results

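Gene expression in the brain of rats with an untreated ischaemic injury was set against that of sham-operated rats. The comparison used 6 of the 9 one-colour (Cy3) arrays of the series, chosen by their labels: 3 from sham-operated rats, and 3 from rats given saline vehicle after middle cerebral artery occlusion (MCAO) and reperfusion. All were male Sprague Dawley rats. Vehicle was injected into the peritoneum daily for 6 days, the first dose 1 h after reperfusion, and the labels date this group 6 days after MCAO. They name no injection for the sham rats, no age, no length of occlusion and no brain region beyond the dissected ischaemic brain. The other 3 arrays came from MCAO rats given salidroside and entered the fit only for the estimate of spread.

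MCAO blocks the vessel that feeds much of the striatum and the lateral cortex. In the days after reperfusion, the injured tissue is known to lose neurons, to gain reactive astrocytes and activated microglia, and to take in macrophages from the blood. In such bulk tissue, fewer cells of a type and less RNA per cell cannot be told apart.

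Signals are given as log2 of the processed signal minus the array's 75th percentile, and are compared only within a probe. The share of probes well above background ran from 65.6% to 88.5%, lowest on sham replicate 3, which was also scanned on a second day. As a check of the labelled tissue, 12 of 12 neuronal, 9 of 9 oligodendrocyte and 7 of 8 microglial markers were above background on all 6 arrays. So were 4 of 9 markers of liver and 5 of 9 of skeletal muscle, which the samples should not hold. Presence above background is thus a weak check of tissue. Slides were told apart only by the scan identifier in the file headers, which need not name the physical slide. By that identifier, no slide held both sham and MCAO arrays, so slide and group cannot be told apart. Sham replicates 2 and 3 had different scan identifiers, yet their log2 signals differed by a spread of 0.090. This lay within the range of 0.060 to 0.10 between repeat spots of 1 array, but above that of 5 of the 6 arrays. Spot noise of these 2 arrays alone would give about 0.083. The 8 other pairs of arrays within a group differed by 0.199 to 0.404. Sham replicates 2 and 3 thus differed by about the spot noise and were counted as 1 sample, a judgement from the values, so that 2 sham samples stood against 3 vehicle samples. The labels do not say that their RNA was shared.

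Of 21916 features tested, 157 were called at a limma adjusted p under 0.05 (0.716%), 35 of them higher in vehicle (0.16%) and 122 lower (0.557%). The median log2 change of all features was 0.11. A gene symbol could be assigned to 42 of the called features, 21 in each direction. The remaining 14 higher and 101 lower calls had no symbol, although such features made up 9029 of those tested. With each array taken as its own sample, the fit planned at first, 703 features were called (294 higher, 409 lower), 155 of the 157 among them. The calls rested on single arrays: 0 remained without sham replicate 1, vehicle replicate 2 or vehicle replicate 3, where limma gave 2838, 4421 and 2568 features with an unadjusted p under 0.05, and 28 were called without vehicle replicate 1. All 157 kept their sign in each of these fits. A fit of the 6 sham and vehicle arrays alone, without the salidroside arrays, called 0 features. Normexp background correction and a block for replicate number each gave 0 calls too.

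**Figure D1:**
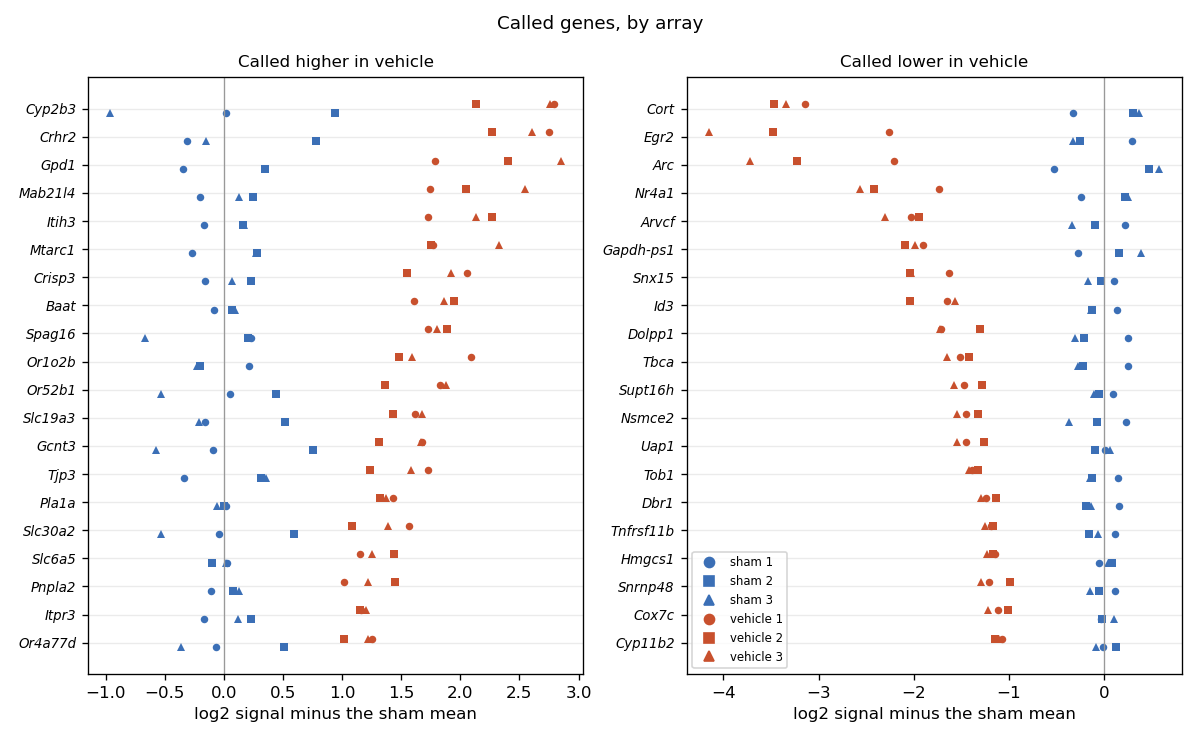
Log2 signal of 40 of the 42 called genes with a symbol on each sham and vehicle array, minus the mean of the sham samples. Genes are ordered by the size of their change, from Cyp2b3 (2.56) and Cort (-3.31) at the top, and each symbol is 1 array.

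Of the named genes that fell, 3 of the largest changes were in genes that neurons switch on when they fire. Synaptic activity drives a set of immediate early genes, many of them transcription factors, within minutes, and their level in resting brain follows ongoing activity. Of the 27 measured members of the activity-induced list, 3 were called lower and 0 higher, where 0.557% and 0.16% of all features were. The list's median log2 change was -0.68, against 0.11 over all features. The vehicle arrays lay below every sham array for 14 of the 27 and above for 1. Of all features, 10.5% lay below and 18.8% above.

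Egr2, a zinc finger transcription factor, had log2 signals of 0.58, 0.04 and -0.04 on sham replicates 1 to 3 and of -1.97, -3.19 and -3.86 on the vehicle arrays. It fell by 3.30 ± 0.49 (SE) on the log2 scale, with a limma adjusted p of 0.0373. Vehicle replicate 1 fell least, and the groups did not overlap. Arc, which encodes a cytoskeletal protein of active synapses, read 2.97, 3.97 and 4.08 in sham and 1.29, 0.27 and -0.22 in vehicle. It fell by 3.05 ± 0.48 (limma adjusted p = 0.0438), and again vehicle replicate 1 was the highest of its group. Nr4a1, an orphan nuclear receptor of the same early response, went from 2.71, 3.17 and 3.20 to 1.21, 0.53 and 0.38. It fell by 2.24 ± 0.35 (limma adjusted p = 0.0428).

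Other members of the family missed the threshold. Egr4 read 3.27, 3.43 and 3.47 in sham and 1.24, 0.36 and -0.99 in vehicle, a log2 change of -3.16 ± 0.55 (limma adjusted p = 0.0562). Junb, a partner of Fos in the AP-1 factor, had a change of -1.92 ± 0.33 (limma adjusted p = 0.055). For Fos itself it was -1.60 ± 0.40 (limma adjusted p = 0.112), and all 3 vehicle arrays lay under the sham arrays. The changes were 0.43 for Egr3 and 0.91 for Per1, a clock gene that is also induced early, with limma adjusted p of 0.486 and 0.194. With each array as its own sample, 7 members were called lower, where 409 of all 21916 features were. Markers of neurons in general, 12 of 12 measured, lay 0.23 to 0.53 below the sham mean on the vehicle arrays, and within -0.06 to 0.07 of it on the sham arrays. Their part in the fall was not tested.

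The promoters of the early genes that fell are shown for the letters they share with known activity-response motifs. Motifs were searched on both strands in the 250 bases before the start site (RefSeq, build GRCr8). These were the CArG box, which serum response factor binds, and the cAMP response element TGACGTCA. Of all 27457 promoters, 1.5% held a CArG box and 1.7% held the cAMP response element. Among 21 measured members of the activity-induced list with a promoter sequence, 3 held the former (Egr1, Egr2, Dusp5) and 3 the latter (Dusp1, Ier2, Btg2). In the Egr2 promoter (chr20:21054442-21054691, minus strand) capitals mark its single CArG box, which starts 83 bases before the start site. The Nr4a1 promoter (chr7:134259888-134260137, plus strand) holds neither motif in this window.
Egr2: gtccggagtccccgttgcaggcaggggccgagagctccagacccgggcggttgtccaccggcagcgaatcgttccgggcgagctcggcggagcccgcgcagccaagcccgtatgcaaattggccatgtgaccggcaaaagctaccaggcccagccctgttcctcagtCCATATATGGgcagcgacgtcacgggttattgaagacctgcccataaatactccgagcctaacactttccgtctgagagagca
Nr4a1: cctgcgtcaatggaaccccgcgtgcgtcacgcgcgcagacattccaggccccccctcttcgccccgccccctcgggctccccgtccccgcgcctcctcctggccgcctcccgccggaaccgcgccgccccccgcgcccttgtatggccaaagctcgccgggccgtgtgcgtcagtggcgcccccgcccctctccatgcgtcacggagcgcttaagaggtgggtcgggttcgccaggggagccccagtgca

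Most measured genes of cholesterol synthesis, 22 of 25, had lower mean signals in vehicle. Brain makes its own cholesterol, in adulthood mostly in astrocytes and oligodendrocytes, through a pathway whose enzymes are induced together by the transcription factor SREBP-2 when sterols are scarce. Of the list's members 2 were called lower and 1 higher, with a median log2 change of -0.77 against 0.11 over all features. These calls stand beside 0.557% of all features called lower and 0.16% called higher. The vehicle arrays lay below all sham arrays for 17 of the 25, where 10.5% of all features did so. The median stayed between -0.94 and -0.67 under all the other settings tried.

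Hmgcs1, which makes the HMG-CoA that the pathway starts from, read 4.68, 4.82 and 4.78 in sham and 3.59, 3.57 and 3.51 in vehicle. It fell by 1.18 ± 0.17 (limma adjusted p = 0.0363), with little spread in either group. Other enzymes had changes of the same sign that were not called. Examples are Sqle, the squalene epoxidase (-0.82 ± 0.16, limma adjusted p = 0.0757), Cyp51, a sterol demethylase (-1.07 ± 0.21, limma adjusted p = 0.0746), and Msmo1 (-1.13 ± 0.21, limma adjusted p = 0.0647).

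Insig1, which holds SREBP in the endoplasmic reticulum, was at -0.94 ± 0.18 and the sterol carrier gene Stard4 at -1.17 ± 0.21, with limma adjusted p of 0.0747 and 0.0646. With each array as its own sample, 9 members were called lower, where 409 of all 21916 features were.

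The Hmgcs1 promoter is shown as that of a called gene of the pathway. Of all promoters 0.976% held the sterol regulatory element core, searched as TCACNCCAC on both strands, and of the 17 measured list members with a sequence, Hmgcs1 (chr2:53382054-53382303, plus strand) among them, 0 held it.
Hmgcs1: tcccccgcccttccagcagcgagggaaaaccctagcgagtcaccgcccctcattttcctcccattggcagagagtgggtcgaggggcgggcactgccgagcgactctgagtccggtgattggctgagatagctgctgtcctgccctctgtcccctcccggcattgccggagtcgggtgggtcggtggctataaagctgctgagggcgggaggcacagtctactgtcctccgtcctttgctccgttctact

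**Figure D2:**
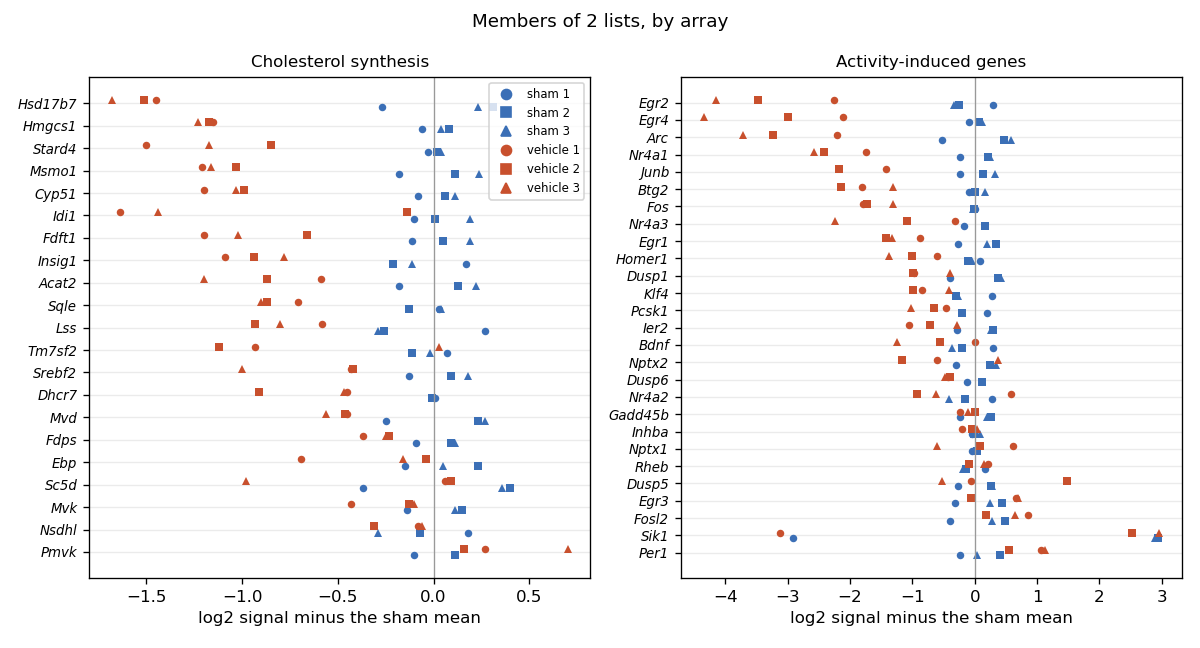
Members of the cholesterol synthesis list (21 drawn) and of the activity-induced list (27 drawn), each with its log2 signal on every sham and vehicle array minus the sham mean. Most vehicle points lie left of the sham points, and Sik1 differed between arrays within both groups.

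Among neuropeptides, cortistatin had the largest fall of any named gene. Neuropeptides are made in particular interneurons and projection neurons and are released with classical transmitters. Of 28 measured peptide and granin genes, 1 was called lower and 0 higher, with a median log2 change of -0.45. The vehicle arrays lay below sham for 7 of the 28 and above for 0, where 10.5% and 18.8% of all features did so, and 0.557% were called lower. Cort, which encodes the somatostatin-like cortistatin of cortical interneurons, read 1.25, 1.88 and 1.94 in sham and -1.56, -1.89 and -1.76 in vehicle. It fell by 3.31 ± 0.45 (limma adjusted p = 0.030), about 9.95-fold.

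Sst, the somatostatin gene, had a change of -1.29 ± 0.29 (limma adjusted p = 0.097), with sham at 5.47 to 5.68 and vehicle at 4.06 to 4.40. Striatal peptide genes separated the sham arrays from each other. Penk read 3.47 on sham replicate 1 and 0.97 and 1.04 on the other two, and 0.77 to 1.17 in vehicle. Markers of striatal spiny neurons, 11 of 12 measured, lay at 0.83 on sham replicate 1 and at -0.81 and -0.85 on replicates 2 and 3, and between -1.19 and -0.67 in vehicle. Markers of cortical projection neurons, 8 of 10 measured, lay at -0.11, -0.78 and -0.89 on the vehicle arrays. The part of the dissected region in these values was not tested.

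Crhr2, a receptor for corticotropin-releasing hormone and urocortins, was higher. It was above background on 1 of 3 sham arrays, reading -7.62, -6.53 and -7.46 there, and -4.56, -5.04 and -4.70 in vehicle. It rose by 2.54 ± 0.39 (limma adjusted p = 0.039). Its change after normexp background correction, under which no feature was called, was 0.58. The following relatives were picked after their values were seen. Crh, the hormone, had a change of -1.66 ± 0.35 and Crhbp, its binding protein, one of -1.27 ± 0.25, with limma adjusted p of 0.0876 and 0.0758. Crhr1, the other receptor, was at 0.94 ± 0.19 (limma adjusted p = 0.0795). None of these 3 passed the threshold, though the arrays of the groups did not overlap for any of them. Choroid plexus markers, 9 of 13 measured, were 1.04, 0.69 and 3.65 above the sham mean on vehicle replicates 1 to 3. The part of choroid plexus in the rise of Crhr2 was not tested.

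Motile cilia beat on the ependymal cells that line the ventricles and move cerebrospinal fluid. They are built from dynein arms, radial spokes and a central pair. Of the 57 genes listed, 29 were measured, 10 of them through the vehicle arrays alone, so their median of 0.96 describes only those 29. The others had no named probe or none bright enough to test. Spag16, a protein of the central pair, was called higher. It read -6.72, -6.75 and -7.62 in sham, above background on 2 of 3 arrays, and -5.22, -5.06 and -5.15 in vehicle, a rise of 1.81 ± 0.27 (limma adjusted p = 0.0373).

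The vehicle arrays lay above sham for 17 of the 29 and below for 1, where 18.8% and 10.5% of all features did so. Among the 19 above background on all sham arrays 9 lay above, where 16.2% of features with that property did. Foxj1, the master regulator of motile ciliogenesis, read -2.88, -2.14 and -2.33 in sham and -0.83, -0.64 and -0.03 in vehicle, a change of 2.06 ± 0.52 that was not called (limma adjusted p = 0.115). Spag6l, another central pair gene, was at 1.96 ± 0.38 (limma adjusted p = 0.0757). Rsph1, of the radial spoke, was at -0.04 ± 0.29 and the groups overlapped. Vehicle replicate 3 was the highest array for Foxj1 and Spag6l. Ependymal markers, of which 9 of 10 were measured and several are also cilia genes, were 1.21, 1.31 and 1.98 above the sham mean on the vehicle arrays. Their part in the cilia values was not tested. After normexp correction the median was 0.27, and the change of Spag16 was 0.22.

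**Figure D3:**
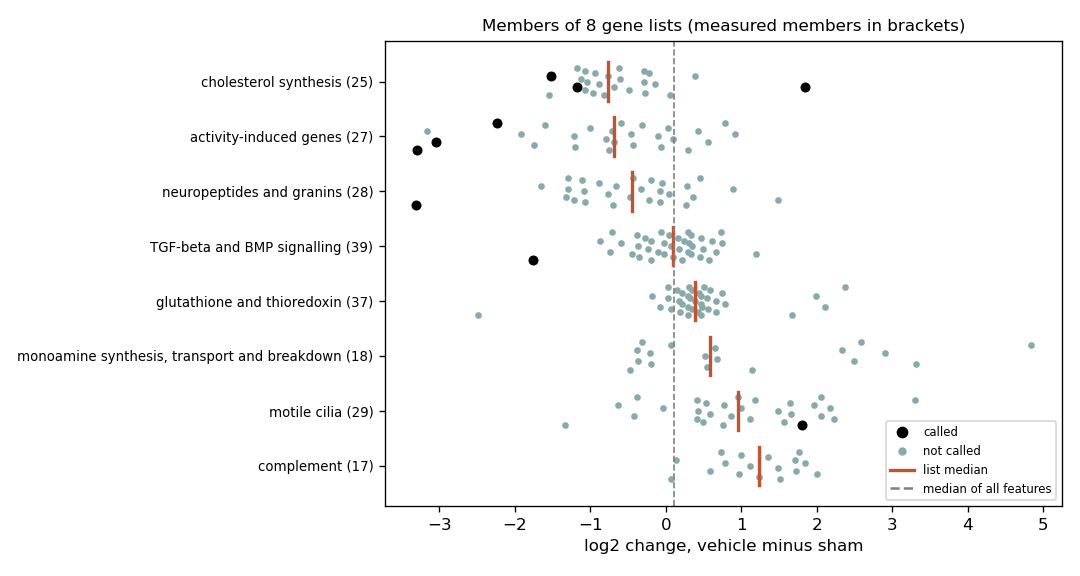
Log2 change of every measured member of 8 gene lists, with called members in black, the list median as a bar and the median of all features (0.11) as a dashed line. Medians run from -0.77 for cholesterol synthesis to 1.23 for complement, and 5 of the 8 lists hold a called member.

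Id3 was the 1 called member of the TGF-beta and BMP list (39 measured), whose median log2 change was 0.10. Over all features, 0.557% were called lower. Id proteins bind basic helix-loop-helix factors and keep them off DNA, and are induced by BMP signals. Id3 read 0.15, -0.11 and -0.12 in sham and -1.63, -2.02 and -1.55 in vehicle. It fell by 1.76 ± 0.20 (limma adjusted p = 0.0155) and was called in 14 of 21 other settings. Its relatives did not share the value. Id1 was at -0.10 ± 0.20, Id2 at -0.87 ± 0.65 and Id4 at 0.24 ± 0.27, with limma adjusted p of 0.838, 0.511 and 0.685. Tgfb1, a cytokine of injured tissue, was at 1.19 ± 0.48 (limma adjusted p = 0.239).

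The next called falls belong to none of the lists. Snx15, a sorting nexin of endosomes, read -1.35, -1.48 and -1.62 in sham and -3.08, -3.49 and -3.48 in vehicle. It fell by 1.90 ± 0.19 (limma adjusted p = 0.0131) and was called in 15 of 21 other settings, as were 21 other features, all without a symbol. Arvcf, a catenin of cell junctions, fell by 2.09 ± 0.23 (limma adjusted p = 0.0153). Tob1, an antiproliferative protein that also promotes the removal of poly(A) tails, went from 0.98, 0.71 and 0.69 to -0.55, -0.49 and -0.58. Gapdh-ps1 fell by 1.99 ± 0.21, but it is annotated as a pseudogene of Gapdh, and its probe may read transcripts of near-identical copies.

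Other called falls follow, grouped after they were called. Supt16h, a histone chaperone that helps polymerase through nucleosomes, fell by 1.45 ± 0.21. Tbca, a tubulin folding cofactor, fell by 1.53 ± 0.21, and Nsmce2, a SUMO ligase of the SMC5/6 complex, by 1.44 ± 0.21. Dolpp1, a dolichyl pyrophosphate phosphatase of glycosylation, fell by 1.57 ± 0.23. Limma adjusted p values of these 4 lay between 0.0328 and 0.0373. Cox7c, a subunit of cytochrome c oxidase, was the 1 called member of 16 measured in its family and fell by 1.12 ± 0.18 (limma adjusted p = 0.0475). Snrnp48, of the minor spliceosome, fell by 1.17 ± 0.19. Tnfrsf11b, the decoy receptor osteoprotegerin, fell by 1.20 ± 0.17 and was the 1 call among 17 measured TNF family genes and receptors. These single calls stand beside 0.557% of all features called lower.

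For 2 of the falls the probes of the gene differed. Uap1, which makes UDP-N-acetylglucosamine, fell by 1.42 on its brighter probe and was at -0.30 on the other. Dbr1, the lariat debranching enzyme, fell by 1.22 on its brighter probe and was at 0.33 on the other, so its direction rests on 1 probe. Cyp11b2, the aldosterone synthase, fell by 1.11 ± 0.18 at a signal close to background, with vehicle at -6.27 to -6.35.

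The size of most rises depended on the background correction. Of the 21 called genes with a symbol that rose, 14 had less than 50% of the reported log2 change after normexp correction, and the median went from 1.72 to 0.58. Of the 21 that fell it was 1, Cyp11b2, at -0.41. Itih3, a heavy chain that links to hyaluronan, read 0.58, 0.91 and 0.92 in sham and 2.48, 3.02 and 2.88 in vehicle, a log2 rise of 2.04 ± 0.29 (limma adjusted p = 0.0333). Gpd1, the cytosolic glycerol-3-phosphate dehydrogenase, read -0.10, 0.60 and 0.60 in sham and 2.04, 2.65 and 3.10 in vehicle. It rose by 2.34 ± 0.36 (limma adjusted p = 0.0421). These 2 changes were 2.02 and 2.43 after normexp correction, whereas that of Spag16 was 0.22. Pnpla2, the adipose triglyceride lipase, rose by 1.23 ± 0.19 and was above background on all 6 arrays.

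Crisp3, a cysteine-rich secretory protein of neutrophil granules and glands, had the smallest p of the rises. It read -5.40, -5.01 and -5.17 in sham and -3.18, -3.69 and -3.32 in vehicle, a rise of 1.85 ± 0.21 (limma adjusted p = 0.0155). Neutrophil markers, 5 of 8 measured, were 0.73, 0.92 and 2.12 above the sham mean on the vehicle arrays. The sham arrays lay at 0.19, 0.05 and -0.43. Only 2 of the markers were above background on all 6 arrays, so the other measured ones passed the filter through 1 group alone. Mpo, Ngp and Mmp8 were not measured, and 7 of the 8 markers had a named probe. The part of neutrophils in the rise of Crisp3 was not tested. Baat, which conjugates bile acids to amino acids, rose by 1.81 ± 0.21 (limma adjusted p = 0.017). Pla1a, a phospholipase specific for phosphatidylserine, went from -3.41, -3.43 and -3.49 to between -2.11 and -2.0, with a limma adjusted p of 0.0332. Under normexp the changes of Crisp3, Baat and Pla1a were 0.84, 0.69 and 0.91.

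Mtarc1, a molybdenum enzyme of mitochondria, rose by 1.95 ± 0.30 and Tjp3, a tight junction scaffold, by 1.52 ± 0.25, both above background on all 6 arrays. Their changes under normexp were 1.08 and 1.15. Mab21l4 was not above background on any sham array and was at least 2.54-fold higher in vehicle, a bound on the percentile scale, while its log2 change under normexp was 0.29. Cyp2b3, a cytochrome P450, had the largest rise of the called genes with a symbol, 2.56 ± 0.36 (limma adjusted p = 0.0332), but its second probe was at 0.31 and its change under normexp was 0.91. Itpr3, a calcium release channel of the endoplasmic reticulum, and Gcnt3, a glycosyltransferase of mucin synthesis, rose by 1.17 ± 0.18 and 1.55 ± 0.24 from signals that were above background on 2 of 3 sham arrays. Their changes under normexp were 0.15 and 0.095.

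Solute carriers, the transport proteins that move nutrients, ions and transmitters, had 289 measured members with 3 called higher and 0 lower. Their median log2 change of 0.15 was near the 0.11 of all features, and 1.04% were called, all of them higher, where 0.16% of all features were called higher. Slc6a5, the glycine transporter of inhibitory neurons, read -2.36, -2.49 and -2.37 in sham and -1.24, -0.95 and -1.14 in vehicle, and rose by 1.28 ± 0.20 (limma adjusted p = 0.0414). Its other probe was at 0.30, and the change was 1.09 under normexp. Slc19a3, a thiamine transporter, rose by 1.58 ± 0.23 and Slc30a2, a zinc exporter, by 1.35 ± 0.21. Both were below background on 1 sham array, and their changes were 0.15 and 0.008 under normexp.

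Olfactory receptor genes gave 3 of the 21 named rises, Or1o2b (1.72 ± 0.24), Or52b1 (1.69 ± 0.25) and Or4a77d (1.16 ± 0.18). They are the largest gene family in the rat and serve chiefly in the nasal epithelium. Of 557 measured members, 3 were called higher and 0 lower (0.539%), where 0.16% of all features were called higher and 0.557% lower. Their median log2 change was 0.37, with 417 above 0. That of all features in the dimmest of 5 bins of mean signal was 0.42, where 233 of the receptors lay. The bin held 24 higher calls among its 4384 features. Of the 557 receptors, 207 were kept through the vehicle arrays alone. For the other 350 the median was 0.21, against 0.03 for all features above background on all sham arrays. The vehicle arrays lay above every sham array for 14.6% of those 350, where 16.2% of such features did so. Of the 3 called receptors, 0 were above background on all sham arrays, and the changes after normexp correction were 0.31, 0.42 and -0.046 in the order given. The part of background in these rises was not tested beyond that correction.

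Direction went with brightness over all features. In 5 equal bins ordered from the dimmest to the brightest, the median log2 change was 0.42, 0.22, 0.11, 0.01 and -0.09. The dimmest bin held 24 of the 35 higher calls, and the 3 brightest held 37, 44 and 24 of the 122 lower ones. Sham replicate 3 was above background for 16.4% of the dimmest bin and 92.2% of the next. Of the higher calls, 25 were not above background on all sham arrays. Features below background on a sham array could be kept only through the vehicle arrays, where they had to be bright. The median log2 change was 0.03 for features above background on all sham arrays, and 0.1 with no filter on dim probes. The part of the filter in the trend with brightness was not tested.

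**Figure D4:**
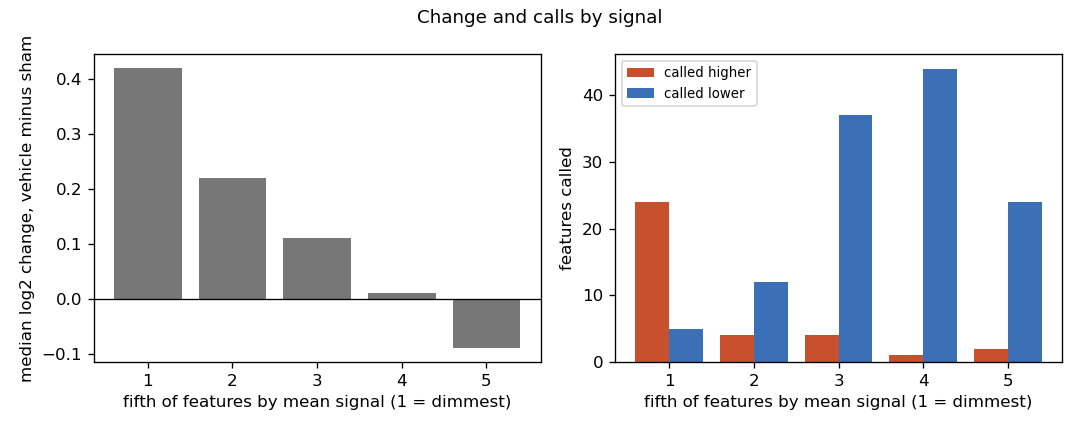
Median log2 change (left) and number of features called (right) in 5 equal bins of all 21916 features, ordered by mean signal on the 6 arrays. The median runs from 0.42 in the dimmest bin to -0.09 in the brightest, and 24 higher calls lie in the dimmest.

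In the other 17 lists, limma called 0 of 344 measured members, 79 of which had an unadjusted p under 0.05, where 19.1% of all features did. The complement genes, which tag debris and synapses for removal by phagocytes, all had changes above 0, with a median of 1.23 over the 17 measured. For 14 of them the vehicle arrays lay above every sham array, where 18.8% of all features did so. However, 4 of the 17 were kept through the vehicle arrays alone. Among the 13 above background on all sham arrays, 12 lay above, where 16.2% of features with that property did. C1qc, a chain of the C1q recognition protein, read -1.38, -1.29 and -1.31 in sham and 0.49, 0.25 and 1.24 in vehicle, a change of 2.00 ± 0.44 (limma adjusted p = 0.0943). C2 was at 1.49 ± 0.39 (limma adjusted p = 0.121). Microglial markers were 0.89, 0.31 and 1.00 above the sham mean on the vehicle arrays and macrophage markers, 6 of 8 measured, 0.97, 0.80 and 1.73. Their part in the complement values was not tested. With each array as its own sample, 2 complement genes were called higher, where 294 of all 21916 features were.

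Glutathione and thioredoxin genes, the main thiol defences against oxidants, had a median of 0.38 over 37 members. The vehicle arrays lay above sham for 19 and below for 1, where 18.8% and 10.5% of all features did so, and 0 were called, beside 0.716% of all. For the 34 above background on all sham arrays the count above was 17, where 16.2% of features with that property lay above. Mt1, a metallothionein that binds zinc and copper, read 2.39, 2.11 and 2.14 in sham and 4.89, 4.02 and 4.96 in vehicle, a change of 2.37 ± 0.41 that missed the threshold (limma adjusted p = 0.0562). Mt2A was at 2.11 ± 0.47, and Mt3, the brain form, at 0.18 ± 0.21. Gclm, the modifier subunit of the enzyme that limits glutathione synthesis, was at -2.49 ± 0.50 (limma adjusted p = 0.0792) and was above background on 1 vehicle array. With each array as its own sample, 3 members were called higher, Mt1 among them, and Gclm was called lower. In that fit, 294 of all 21916 features were called higher and 409 lower.

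Metallothionein promoters are shown because these genes are the classic targets of the metal-response factor MTF-1, whose sites hold the core TGCNCNC. Of all promoters 43.9% hold this short core at least once in 250 bases on either strand, so its presence alone says little. The Mt1 promoter (chr19:10832976-10833225, minus strand) holds it 7 times and the Mt2A promoter 5 times. Capitals mark the core.
Mt1: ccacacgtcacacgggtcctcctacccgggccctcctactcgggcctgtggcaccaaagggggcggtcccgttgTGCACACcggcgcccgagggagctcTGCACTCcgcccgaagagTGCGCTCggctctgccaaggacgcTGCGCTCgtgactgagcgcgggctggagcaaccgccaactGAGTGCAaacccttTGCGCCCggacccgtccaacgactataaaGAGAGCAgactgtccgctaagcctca

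Among monoamine genes the vehicle arrays differed from each other. Slc6a4, the serotonin transporter, read -6.25, -5.44 and -5.93 in sham and -4.44, -3.47 and -2.53 in vehicle, with a change of 2.49 ± 0.52 (limma adjusted p = 0.0868). Hdc, which makes histamine, was at 2.33 ± 0.62 (limma adjusted p = 0.125). Tph1, a tryptophan hydroxylase, read -4.59 and -3.24 on vehicle replicates 1 and 2 and 4.57 on replicate 3, and Tph2, the neuronal form, read -5.72, -0.57 and 0.35. Thalamic markers, 9 of 10 measured, lay at -0.07 on vehicle replicate 1 and at 1.44 and 1.36 on replicates 2 and 3. The part of the dissected region in these values was not tested.

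Most of the remaining lists are given by 1 or 2 members with the smallest p, of which 0 were called. The Notch, cholinergic and neurogenesis lists are given here only by the counts above. In the hyaluronan list, Cd44, the hyaluronan receptor of glia and leukocytes, read -2.33, -2.47 and -2.61 in sham and -0.72, -1.27 and -0.50 in vehicle. That is a change of 1.60 ± 0.37 (limma adjusted p = 0.0985), with 0.40 on the lowest of its 3 probes. Sat1, which acetylates polyamines for breakdown, was at 0.95 ± 0.22 and Cyp26b1, which degrades retinoic acid, at 1.11 ± 0.25. Both had limma adjusted p of 0.0985, no overlap of groups, and a call with each array as its own sample. Cd44 was called in that fit too.

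Genes of eicosanoid synthesis had a median of 0.41 over 20 members, with Alox5ap, the 5-lipoxygenase activating protein, at 1.27 ± 0.36 and Tbxas1, the thromboxane synthase, at 1.60 ± 0.48. Of the interferon list, Psmb8, an immunoproteasome subunit, was at 1.23 ± 0.43, and Tap1, the peptide transporter, at 0.87 ± 0.33. Purinergic genes had a median of 0.42 over 21, but 8 of them were kept through the vehicle arrays alone. For the 13 above background on all sham arrays it was 0.22, against 0.03 for all features with that property. After normexp correction the median of the list was 0. P2ry4 was at 1.71 ± 0.36 and P2rx2 at 1.12 ± 0.25, both below background on 1 sham array. Over the other settings their changes went as low as 0.27 and 0.17. Of the coagulation list, Procr had the smallest p, with a change of 1.19 (limma adjusted p = 0.0963) that was 0.19 under normexp. Plat, the tissue plasminogen activator, was at 0.75 ± 0.21.

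Members with the smallest p in the neurite, myelin and metabolic lists had changes of either sign. Lingo1, a part of the receptor complex for myelin inhibitors, was at -1.09 ± 0.31 and Rtn4, which encodes Nogo, at -0.67 ± 0.19. Opalin, a membrane protein of oligodendrocytes, was at -1.04 ± 0.45 and Myrf, a transcription factor of myelination, at 0.84 ± 0.38, and the myelin list had a median of 0.16 over 21. Elovl6 and Fads1, of fatty acid elongation and desaturation, were at -0.70 ± 0.25 and -0.64 ± 0.24. Tricarboxylic acid cycle genes had a median of -0.02 over 23, with Idh2 at 0.77 ± 0.18 and Pdha1 at -0.62 ± 0.19.

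Of 78 symbol families with at least 8 measured members, 6 held a call. The 32 RT1 histocompatibility genes, which present peptides to T cells, had a median of 0.70 and 12 above all sham arrays, against 18.8% of all features, though 5 were kept through the vehicle arrays alone. Limma called 0 of them and gave 9 an unadjusted p under 0.05, against 19.1% of all features. For the 27 above background on all sham arrays, 9 lay above every sham array, where 16.2% of features with that property did. The 78 cytosolic ribosomal protein genes ranged from -0.33 to 0.68.

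**Figure D5:**
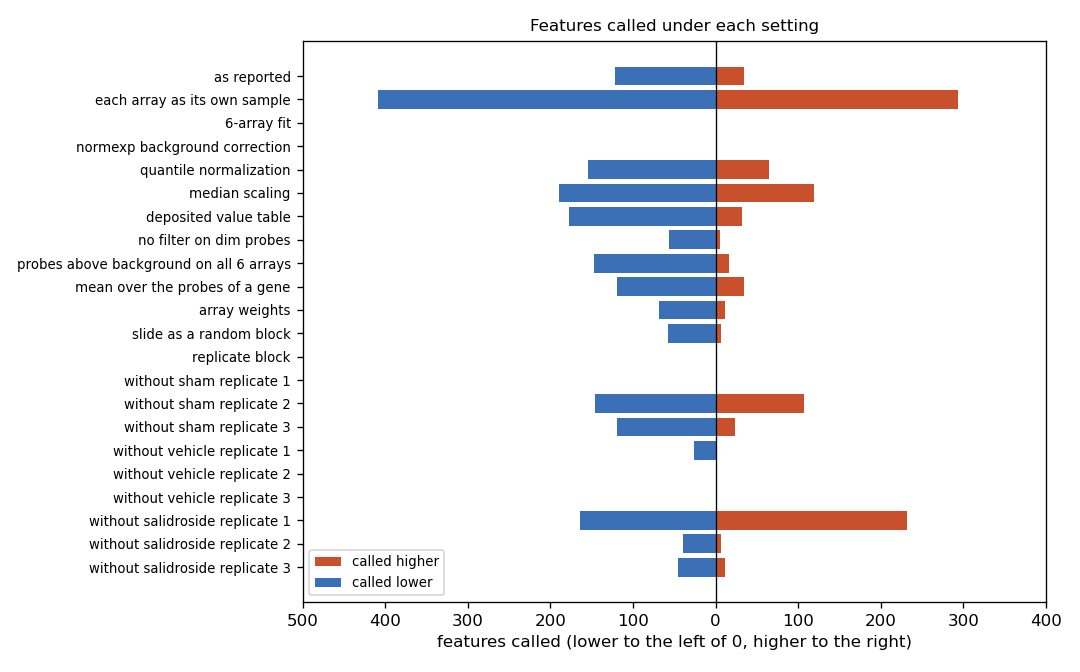
Features called higher (right of 0) and lower (left of 0) in vehicle under the reported analysis and 21 other settings. The reported counts are 35 and 122, the largest are 294 and 409 with each array as its own sample, and 6 settings give 0.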

How the data were processed

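Agilent one-colour arrays of total RNA from rat brain were used. Per the file headers, the authors used Agilent's Feature Extraction software, version 11.0.1.1, which gives a background-subtracted fluorescence intensity per spot. A deposited table of log2 values (19477 probes) served as an alternative. The design build is rn4. Names came from a RefSeq table (18005 probes named, 12362 not), and promoters from build GRCr8.

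Log2 intensity minus each array's 75th percentile was averaged over the spots of a probe. Probes well above background on all arrays of sham or of vehicle were kept, the brightest per name. Limma 3.58.1 (R 4.3.3) fitted 3 groups, with p adjusted by the Benjamini-Hochberg method over all features. The fit as first written took each array as a sample and was run first (703 calls, 294 higher and 409 lower). It was replaced by the reported fit (157 calls, 8 samples) after this result was seen, because sham replicates 2 and 3 differed by 0.090, close to spot noise. That they share RNA is inferred from the values alone. The fit was also run on simulated data, in which all arrays varied independently, with no near-duplicate sham arrays and no slide effect. It therefore cannot show how the fit behaves with those features of the data. Its pass mark for recovery of the largest changes was lowered after the result was seen. P-values measure the spread between samples, and the number of arrays limits precision.

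Named genes are the 16 largest called rises and falls, the 6 smallest p each way, and up to 4 called members of each list or family. Where a list had no call, 1 or 2 members of smallest p are named, except for the Notch and neurogenesis lists. Members of the lists were also named as examples of theirs after their values were seen, as were Itpr3, Pnpla2 and Snrnp48. The lists, families and members were chosen with earlier results of these data known. The family patterns go by symbol only. Results of a few genes are not reported here, although counts and medians of lists include them. Alternatives covered samples, background correction, scaling, filter, probes, weights, slide and replicates. The replicate numbers were not taken to pair samples (correlations of same-numbered deviations 0.065, -0.168 and -0.047).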

Additional observations from a re-analysis of the deposited data

How the results depend on the processing

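Counts of calls moved with most settings, while directions did not: the sign of all 157 calls held in each setting that tested them except normexp background correction, where 153 held. With each array as its own sample, the fit first planned and replaced after its result was seen, 703 features were called (294 higher, 409 lower). The 6-array fit, normexp and the replicate block each gave 0 calls (0 higher, 0 lower), with 3742, 1136 and 3434 features at an unadjusted p under 0.05 by limma. Normexp used the median spot signal. Calls higher and lower were 119 and 189 (308 in all) with median scaling, 65 higher with quantile normalization (154 lower, 219 in all), 5 and 56 (61) with no filter on dim probes, 16 higher (147 lower) for probes above background on all 6 arrays, 12 and 68 (80) with array weights, and 6 and 57 (63) with slide as a random block. The deposited table gave 209 (32 and 177). Leaving out 1 replicate gave 0 to 396 calls, 0 to 232 higher and 0 to 164 lower. The widest count came without salidroside replicate 1, and replicates 2 and 3 of that group left 47 and 57. Without sham replicate 1, a single sham sample remained and was assumed to vary like the other groups. The share of features whose arrays did not overlap was 29.4%, with 17.9% under normexp, 30.4% under quantile normalization, 27.8% under median scaling, 30.9% in the deposited table and 25.4% with no filter, and 31.8% to 48.3% without 1 replicate. Or4a77d was at -0.046 and Chrnb2, a nicotinic receptor subunit, at -0.034 under normexp, both turned in sign. The cause of these moves was not tested, apart from the fewer samples or features that some settings have. Of the 157 calls, 0 held in all 21 settings. Median scaling moved the median of all features from 0.107 to -0.069, and the share of higher calls from 22.3% to 38.6%. That share was 41.8% with each array as its own sample.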

Other observations

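Some changes outside the fixed lists were picked after their values were seen, and neither was called (limma adjusted p of 0.0894 and 0.0588). Sgk1, a kinase induced by glucocorticoids, read 1.04, 0.63 and 0.74 in sham and 2.31, 2.35 and 2.59 in vehicle, a log2 change of 1.56 ± 0.33 (SE). Map3k6, a stress-activated kinase, had a change of 1.98 ± 0.35. The groups did not overlap for either.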
